A study of Mus musculus with 23 samples.

Results

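Dbp, Tef and Hlf, the PAR bZIP transcription factors, and Nfil3, the repressor that shares their binding sites, were followed in the circumvallate papilla of mice on 3 feeding regimes. These are 4 genes of the 28366 kept for testing among 35019 symbols on the array. They were taken by their names on the array, with all 5 probes that carry those names and are not controls: 2 for Dbp and 1 each for Tef, Hlf and Nfil3. For Dbp the probe with the higher mean level over the 23 arrays leads (2.04 against 2.02 on the log2 scale described next), a choice that takes no account of group. The family itself was chosen by measured values, since it was proposed with the group differences of Dbp and Tef in these data already known, so the calls for its members are a description of them and not independent evidence about a family.

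The 8 DIO-R samples are read as coming from mice on an obesogenic diet rich in saturated fat whose energy intake was held to 60% of that taken freely, although the labels do not define this name. The 8 DIO samples came from mice given the same diet freely, and the 7 Lean samples from mice given a standard chow with 3% fat by weight. All were male C57Bl6/j mice, and each sample is papilla epithelium lifted off with elastase and dispase, of which 25 ng of RNA was labelled for a 1-colour Agilent array. Age, length of feeding and the hour at which tissue was taken are not given in the sources used here, nor is it stated that each sample is a separate animal, so the spread that the p-values rest on may be technical. A level is the log2 signal of a probe after background subtraction, set against the 75th percentile on its own array, so a level of 0 equals that percentile. It serves to compare samples for 1 probe and not 1 probe with another. The arrays lay on 3 slides that each held every group, and the share of probes well above background was 66.9% on the lowest array and 78.4% on the highest. All 10 taste bud markers and all 5 basal keratinocyte markers listed were measured above background. Fewer cells of a type and less RNA per cell cannot be told apart in such bulk samples.

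PAR bZIP proteins are transcription factors rich in proline and acidic residues that bind DNA as dimers at a site called the D-box. In the circadian clock the activators CLOCK and BMAL1 switch on Dbp through E-boxes, the period and cryptochrome proteins shut that drive off, and Dbp, Tef and Hlf carry the rhythm to output genes of metabolism and detoxification. Nfil3, also known as E4BP4, binds the same D-box but represses, and its own gene is held down by the REV-ERB receptors (Nr1d1 and Nr1d2) acting at ROR elements. In tissues such as liver Dbp and Nfil3 therefore peak at opposite phases of the day.

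The stretches of 250 bases before each start site were searched for exact matches to 4 motifs. Sequence farther upstream or within the genes was not searched. They are RefSeq sequences of build GRCm38.p6, written on the strand of the gene, and all 4 genes were matched by symbol, Tef with 2 start sites. Capitals mark matches on either strand to the E-box CACGTG, the D-box TTANGTAA, the ROR element core AGGTCA or the cAMP response element TGACGTCA, none of which overlap one another here.
Dbp (chr7:45704997-45705246, + strand): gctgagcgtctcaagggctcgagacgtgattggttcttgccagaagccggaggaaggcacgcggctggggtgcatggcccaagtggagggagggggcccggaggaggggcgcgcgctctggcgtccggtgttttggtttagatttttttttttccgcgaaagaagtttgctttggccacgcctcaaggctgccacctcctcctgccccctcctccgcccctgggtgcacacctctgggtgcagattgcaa
Tef, first start site (chr15:81802423-81802672, + strand): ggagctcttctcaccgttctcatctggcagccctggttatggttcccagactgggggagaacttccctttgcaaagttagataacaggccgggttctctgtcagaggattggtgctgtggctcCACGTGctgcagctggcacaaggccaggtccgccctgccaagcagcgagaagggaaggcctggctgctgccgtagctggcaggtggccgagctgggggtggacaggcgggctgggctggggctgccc
Tef, second start site (chr15:81811164-81811413, + strand): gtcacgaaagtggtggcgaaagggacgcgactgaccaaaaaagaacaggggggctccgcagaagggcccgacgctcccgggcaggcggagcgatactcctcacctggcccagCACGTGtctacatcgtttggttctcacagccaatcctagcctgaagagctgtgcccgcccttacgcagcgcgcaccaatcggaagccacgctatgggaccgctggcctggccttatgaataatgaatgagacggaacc
Hlf (chr11:90390918-90391167, - strand): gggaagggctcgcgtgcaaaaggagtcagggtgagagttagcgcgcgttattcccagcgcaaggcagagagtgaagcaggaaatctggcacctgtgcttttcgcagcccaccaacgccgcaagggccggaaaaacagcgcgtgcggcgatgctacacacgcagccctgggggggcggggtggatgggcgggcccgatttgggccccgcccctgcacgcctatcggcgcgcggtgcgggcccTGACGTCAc
Nfil3 (chr13:52981040-52981289, - strand): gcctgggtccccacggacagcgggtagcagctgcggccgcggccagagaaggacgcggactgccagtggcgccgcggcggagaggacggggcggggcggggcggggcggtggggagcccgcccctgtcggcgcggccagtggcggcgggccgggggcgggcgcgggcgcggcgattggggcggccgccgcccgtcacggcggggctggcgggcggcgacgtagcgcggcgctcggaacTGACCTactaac
Both start sites of Tef had an E-box, beginning 127 and 138 bases before the start, an element held by 6.02% of the 32851 windows of this length in the table. The Hlf window held a cAMP response element that begins 9 bases before the start (1.55% of windows), and the Nfil3 window an AGGTCA core on the opposite strand that begins 12 bases before it (14.0% of windows). The D-box, held by 2.06% of windows, was in none of the 5, and the Dbp window held none of the 4 motifs. A match is a description of letters and not of a bound site. A window without a match says nothing of sites outside it or of inexact ones.

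Dbp, named for the D site of the albumin promoter, had the largest log2 differences between groups of the 4 genes. Its leading probe (A_55_P2032079, chr7:52965461-52965520, + strand, build mm9) begins at base 1565 of its transcript, and the other (A_55_P2032081, chr7:52965322-52965381) at base 1426. Dbp levels in DIO-R ran from 2.54 to 4.57 with a median of 3.93, in DIO from 0.92 to 2.86 with a median of 1.73, and in Lean from 0.16 to 0.47 with a median of 0.28. Every DIO-R and every DIO sample thus lay above the highest Lean sample, and 7 of 8 DIO-R samples lay above the highest DIO sample, DIO 8. As intensities the medians were 15.4, 3.30 and 1.22 times the array's 75th percentile in DIO-R, DIO and Lean.

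Dbp rose 3.94-fold in DIO-R against DIO (log2 difference 1.98 ± 0.25 SE, 95% confidence interval 1.45 to 2.51, n = 8 and 8, limma adjusted p = 0.000715 over all genes). In that comparison 0.0599% of all genes passed at an adjusted p under 0.05 (0.0212% higher and 0.0388% lower), and 0.0881% had groups that did not overlap (0.0494% with DIO-R higher). Dbp also rose 11.2-fold in DIO-R against Lean (3.49 ± 0.26 SE, n = 8 and 7, limma adjusted p = 1.75e-07), the smallest p of the 28366 genes there, where 0.127% of genes passed (0.0529% higher and 0.074% lower) and 0.303% had groups that did not overlap (0.187% with DIO-R higher). In DIO against Lean it was 1.51 ± 0.26 SE higher and did not pass (limma adjusted p = 0.0797, n = 8 and 7), although the groups did not overlap. That comparison called 0.00353% of genes, with groups that did not overlap in 0.12% (0.074% with DIO higher). These comparisons share their groups, so the value for DIO-R against Lean is the sum of the other two.

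The SD of Dbp was 0.66 in DIO-R and 0.59 in DIO but 0.10 in Lean, while the fit assumes 1 spread for all groups. The other Dbp probe gave levels from 2.73 to 4.85 in DIO-R, 0.96 to 2.83 in DIO and -0.07 to 0.51 in Lean, and followed the leading one across the 23 arrays (r = 0.996). Tested on its own it differed by 2.00 ± 0.27, 1.61 ± 0.28 and 3.61 ± 0.28 SE in DIO-R against DIO, DIO against Lean and DIO-R against Lean. The 3' end of Dbp overlaps that of Sphk2, a sphingosine kinase gene, in the RefSeq table. Sphk2 differed by 0.24 ± 0.09, -0.09 ± 0.09 and 0.14 ± 0.09 SE in the same 3 comparisons and did not pass (limma adjusted p = 0.479, 0.835 and 0.673).

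**Figure D1:**
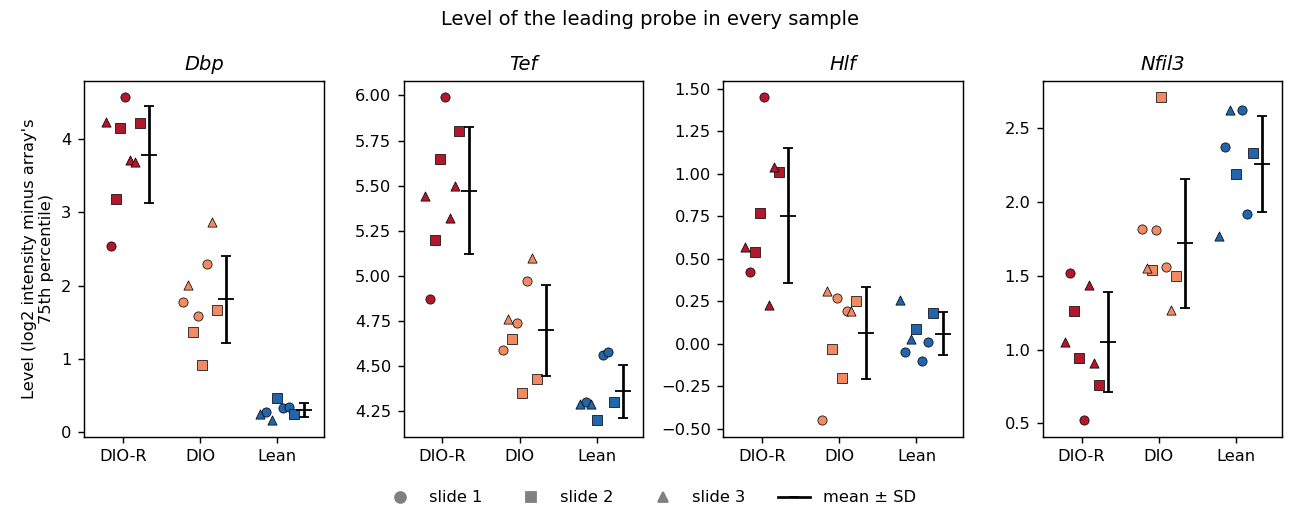
Level of the leading probe of Dbp, Tef, Hlf and Nfil3 (y axis, log2 intensity minus the array's 75th percentile) in every DIO-R, DIO and Lean sample, with the slide shown by the shape of the point and the mean ± SD of a group (n = 8, 8 and 7) beside it. All 8 DIO-R samples lie above all 7 Lean samples for Dbp and Tef and below them for Nfil3, where DIO 6 is at 2.71, and 7 of 8 DIO-R samples lie above the highest DIO and Lean samples for Hlf.

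Tef, thyrotroph embryonic factor, rose in both comparisons of DIO-R, as Dbp did. Its probe lies at chr15:81657221-81657280 (+ strand, mm9), from base 4171 of the transcript. Tef levels in DIO-R ran from 4.87 to 5.99 with a median of 5.47, in DIO from 4.35 to 5.10 with a median of 4.70, and in Lean from 4.20 to 4.58 with a median of 4.30. DIO-R and Lean did not overlap, 7 of 8 DIO-R samples lay above every DIO sample, and DIO and Lean overlapped in part. Tef rose 1.71-fold in DIO-R against DIO (0.77 ± 0.13 SE, n = 8 and 8, limma adjusted p = 0.0186) and 2.16-fold in DIO-R against Lean (1.11 ± 0.14 SE, n = 8 and 7, limma adjusted p = 0.000245). In DIO against Lean it differed by 0.34 ± 0.14 SE and did not pass (limma adjusted p = 0.464). The call in DIO-R against DIO was lost without DIO 1 (0.75), DIO 6 (0.72), DIO-R 5 (0.75), DIO-R 8 (0.77) or DIO-R 10 (0.72), with limma adjusted p from 0.0502 to 0.062.

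Hlf, hepatic leukaemia factor, differed between DIO-R and both other groups by similar amounts, without passing. Its probe lies at chr11:90200696-90200755 (- strand, mm9), from base 2758 of the transcript. Hlf levels in DIO-R ran from 0.23 to 1.45 with a median of 0.67, in DIO from -0.45 to 0.31 with a median of 0.19, and in Lean from -0.10 to 0.26 with a median of 0.03. DIO-R 7, at 0.23, was the 1 DIO-R sample within the range of either other group. The difference was 0.69 ± 0.14 SE in DIO-R against DIO (limma adjusted p = 0.0864) and 0.69 ± 0.15 SE in DIO-R against Lean (limma adjusted p = 0.0764), higher than the mean of the other group in 8 of 8 DIO-R samples each time. In DIO against Lean it was 0.01 ± 0.15 SE, with a 95% confidence interval of -0.30 to 0.32 (limma adjusted p = 0.993). Without DIO-R 7 Hlf passed in DIO-R against DIO (0.76, limma adjusted p = 0.0315) and in DIO-R against Lean (0.77, limma adjusted p = 0.0226).

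Nfil3, the repressor, was lower in DIO-R than in Lean, where Dbp and Tef were higher. Its probe lies at chr13:53062578-53062637 (- strand, mm9), from base 1932 of the transcript. Nfil3 levels in DIO-R ran from 0.52 to 1.52 with a median of 1.00, in DIO from 1.27 to 2.71 with a median of 1.56, and in Lean from 1.77 to 2.62 with a median of 2.33. All 8 DIO-R samples lay below the lowest Lean sample, 6 of 8 lay below every DIO sample, and DIO 6, at 2.71, was above every Lean sample. Nfil3 fell 2.32-fold in DIO-R against Lean (log2 difference -1.21 ± 0.19 SE, n = 8 and 7, limma adjusted p = 0.00517). It differed by -0.67 ± 0.18 SE in DIO-R against DIO (limma adjusted p = 0.309) and by -0.54 ± 0.19 SE in DIO against Lean (limma adjusted p = 0.382), and passed in neither. Without DIO 6 those 2 differences were -0.53 and -0.68.

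Over the 3 comparisons, 2 of the 4 members passed in DIO-R against DIO, none in DIO against Lean and 3 in DIO-R against Lean. Of all genes 0.0599%, 0.00353% and 0.127% passed in the same order. By limma at an unadjusted p under 0.05, 4, 3 and 4 members differed, beside 9.73%, 8.95% and 8.95% of all genes. In the order of group means Dbp and Tef ran from DIO-R through DIO to Lean and Nfil3 the other way. The DIO and Lean means of Hlf differed by less than the SD of either group. The median difference over all genes was 0.01, -0.04 and -0.02 in DIO-R against DIO, DIO against Lean and DIO-R against Lean. Within slides 1, 2 and 3 the DIO-R against DIO difference was 1.67, 2.53 and 1.44 for Dbp, 0.66, 1.07 and 0.49 for Tef, 0.93, 0.76 and 0.36 for Hlf, and -0.71, -0.94 and -0.28 for Nfil3. In DIO against Lean Dbp differed by 1.57, 0.96 and 2.23 and Nfil3 by -0.58, -0.34 and -0.79 within these slides, each of which holds 2 or 3 samples a group.

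**Figure D2:**
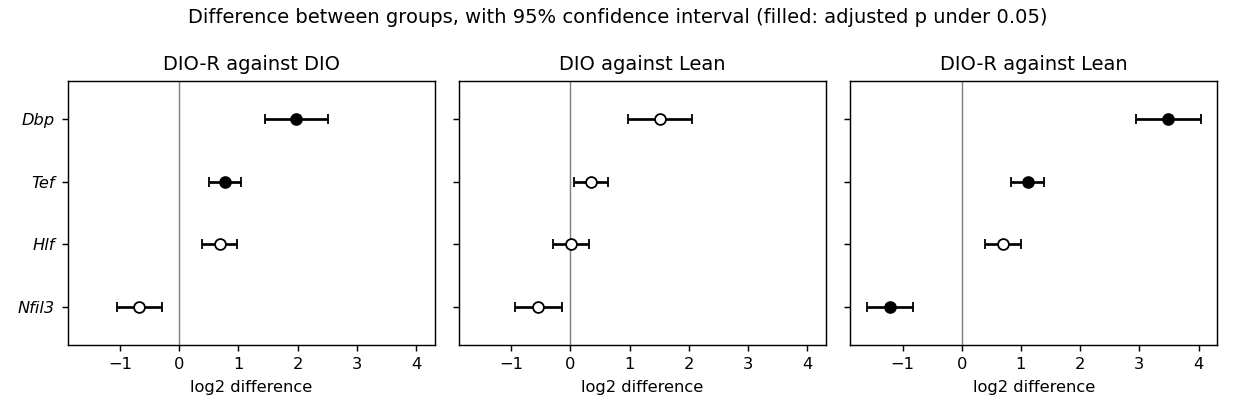
Log2 difference between groups (x axis) for the 4 members in DIO-R against DIO, DIO against Lean and DIO-R against Lean, with 95% confidence intervals from limma over 23 arrays. Filled points passed at an adjusted p under 0.05: Dbp and Tef in DIO-R against DIO, and Dbp, Tef and Nfil3 in DIO-R against Lean.

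Within DIO-R and within DIO, samples also differed from each other in a way that several members shared. DIO-R 6 had the highest Dbp, Tef and Hlf and the lowest Nfil3 of its group, at 4.57, 5.99, 1.45 and 0.52. DIO-R 3 had the lowest Dbp and Tef and the highest Nfil3, at 2.54, 4.87 and 1.52. In DIO, sample 8 had the highest Dbp and Tef and the lowest Nfil3, at 2.86, 5.10 and 1.27, and sample 6 the lowest Dbp and Tef and the highest Nfil3, at 0.92, 4.35 and 2.71. In these 2 groups the same samples thus stood at the ends of the range for several members, in opposite order for Nfil3. Hlf was lowest in DIO-R 7 (0.23), and in DIO its extremes were samples 1 (-0.45) and 2 (0.31). In Lean, sample 6 had the highest Dbp but the lowest Tef, at 0.47 and 4.20. Lean 5 had the lowest Dbp and the highest Nfil3, at 0.16 and 2.62.

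Deviations from the group means, which remove the differences between groups, were correlated over the 23 arrays for the 6 pairs of members, with p from 100000 permutations within groups, two-sided, and adjusted over the 6 pairs. Dbp and Tef deviated together (r = 0.865, permutation p = 5e-05, adjusted p = 0.0003; Spearman rho on within-group ranks 0.643, permutation p = 0.00262, adjusted p = 0.0084). Nfil3 deviated against Dbp (r = -0.696, permutation p = 0.00032, adjusted p = 0.00096; rho -0.545, permutation p = 0.0135, adjusted p = 0.0202). It deviated against Tef likewise (r = -0.651, permutation p = 0.00095, adjusted p = 0.00142; rho -0.554, permutation p = 0.0112, adjusted p = 0.0202). Against Hlf the values were r = -0.679 (permutation p = 0.0005, adjusted p = 0.001) and rho -0.634 (permutation p = 0.0028, adjusted p = 0.0084). Without the 2 arrays farthest from the median on the first-named gene, r was 0.76 for Dbp with Tef, and -0.63, -0.55 and -0.61 for Dbp, Tef and Hlf with Nfil3. These arrays were not chosen by Nfil3, so the last 3 values cannot show how far its correlations rest on DIO 6 (Nfil3 at 2.71).

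For the pairs of Hlf with the other activators r passed and rho did not. Tef with Hlf gave r = 0.605 (permutation p = 0.0123, adjusted p = 0.0148) and rho 0.357 (permutation p = 0.119, adjusted p = 0.143), and Dbp with Hlf r = 0.514 (permutation p = 0.0454, adjusted p = 0.0454) and rho 0.232 (permutation p = 0.32, adjusted p = 0.32). Without the 2 farthest arrays r was 0.42 for Tef with Hlf and 0.49 for Dbp with Hlf, and neither passed (permutation adjusted p = 0.102 and 0.0937). With slide means removed as well, r was 0.88 for Dbp with Tef and -0.69 for Dbp with Nfil3.

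Within single groups, in 18 tests of pair and group adjusted together, r passed for 5 of 6 pairs in DIO-R, 1 of 6 in DIO and 0 of 6 in Lean, whereas rho passed for 2 of 6 in DIO-R and 0 of 6 in DIO and in Lean. In DIO-R (n = 8) r was 0.932 for Dbp with Tef (exact permutation p = 0.00067, adjusted p = 0.00521; rho 0.810, exact p = 0.0218, adjusted p = 0.0784), and -0.941 for Hlf with Nfil3 (exact permutation p = 0.000546, adjusted p = 0.00521; rho -0.952, exact p = 0.00114, adjusted p = 0.0103). For Tef with Nfil3 in DIO-R it was -0.940 (exact permutation p = 0.000868, adjusted p = 0.00521; rho -0.952, exact p = 0.00114, adjusted p = 0.0103). The other pairs that passed by r in DIO-R were Tef with Hlf (r = 0.817, exact permutation p = 0.0131, adjusted p = 0.0394; rho 0.857, exact p = 0.0107, adjusted p = 0.0643) and Dbp with Nfil3 (r = -0.828, exact permutation p = 0.00987, adjusted p = 0.0355; rho -0.714, exact p = 0.0576, adjusted p = 0.173). In DIO (n = 8) Dbp with Tef gave 0.889 (exact permutation p = 0.00352, adjusted p = 0.0158; rho 0.810, exact p = 0.0218, adjusted p = 0.0784). In Lean (n = 7), where Dbp varied by 0.31 from lowest to highest sample, the same pair gave 0.053 (exact permutation p = 0.873, adjusted p = 0.925; rho 0.143, exact p = 0.783). Whether the relation differs between groups was not tested.

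**Figure D3:**
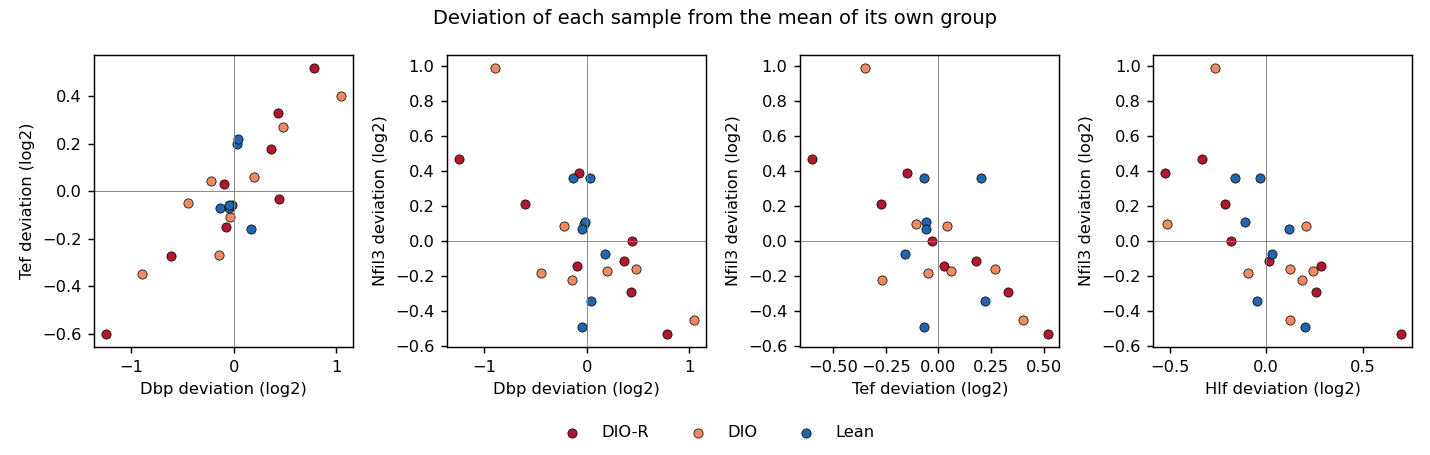
Deviation of each sample from the mean of its own group (log2, both axes) for Dbp and Tef, Dbp and Nfil3, Tef and Nfil3, and Hlf and Nfil3, with DIO-R, DIO and Lean samples in different colours. Dbp and Tef lie along a rising line (r = 0.865) and Nfil3 along falling ones (r = -0.696, -0.651 and -0.679), while the Lean samples cluster at small deviations of Dbp.

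The genes whose level over the 23 arrays was most like that of each member were for Dbp and Tef largely clock genes. All were picked for this value among 28352 genes, so the correlations are a description with no test, and they hold the group differences. Most like Dbp were Tef (r = 0.957), the REV-ERB receptors Nr1d2 (0.933) and Nr1d1 (0.879), Camkv (0.857) and Per2 (0.856), a period gene. Most like Tef were Dbp, Nr1d2 (0.953), the cryptochrome Cry2 (0.910), Per2 (0.906) and Ciart (0.864), a repressor of CLOCK and BMAL1. Most like Hlf were Bhlhe40 (0.912), an E-box-binding repressor, Per2 (0.905), Naaladl2 (0.880), the stearoyl-CoA desaturase Scd2 (0.863) and Rdh10 (0.849), a retinol dehydrogenase.

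Nfil3 was most like Arntl, the gene of BMAL1 (r = 0.888), followed by Sqstm1, the autophagy receptor p62 (0.860), Arhgap20 (0.853), Gm128 (0.850) and Tigd2 (0.835). The genes most opposed to Dbp were Nfil3 (-0.902), Arntl (-0.882), the acyl-CoA thioesterases Acot1 (-0.831) and Acot5 (-0.823), and C2cd4b (-0.830). After removal of group means Arntl stayed at -0.657 with Dbp, and Acot1 and Acot5 lay at -0.034 and 0.053. Acot1 can share probe signal with its near-identical copy Acot2.

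The 11 other genes listed as driven through E-boxes were all kept for testing. Of these, 6 rose in DIO-R against Lean, 1 rose in DIO-R against DIO and none passed in DIO against Lean by limma. Of all genes 0.0529%, 0.0212% and 0.00353% passed as higher in these comparisons, in the same order. At an unadjusted p under 0.05, 8 of the 11 were higher in DIO-R against Lean and 8 in DIO-R against DIO. In DIO against Lean 3 were higher and 1 lower. Beside them 8.95%, 9.73% and 8.95% of all genes had such a p, in either direction. The median difference of the 11 was 0.73, 0.49 and 0.10 in those comparisons. The 6 that rose in DIO-R against Lean were Ciart (2.38 ± 0.35 SE, limma adjusted p = 0.00237), Per2 (1.44 ± 0.24), Nr1d1 (1.20 ± 0.17), Nr1d2 (1.19 ± 0.15), Bhlhe40 (0.73 ± 0.15) and Cry2 (0.43 ± 0.08). Bhlhe40 was the 1 gene of the list that rose in DIO-R against DIO (0.76 ± 0.14 SE, limma adjusted p = 0.0391). Of the other period genes, Per3 differed by 1.11 ± 0.27 SE and Per1 by 0.06 ± 0.19 SE in DIO-R against Lean, and neither passed. As the list was written with earlier results of these data known, its counts describe it and set it apart from nothing.

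The 7 clock activators and genes with ROR elements were all lower in DIO-R than in Lean, Rorb by only -0.03 ± 0.47 SE. Of all genes 44.6% were higher in that comparison. The 1 that fell by limma was Arntl (-0.99 ± 0.17 SE, limma adjusted p = 0.00772), where 0.074% of all genes passed as lower. The median of the list was -0.32 in DIO-R against Lean, -0.42 in DIO against Lean and 0.12 in DIO-R against DIO. Arntl differed by -0.65 ± 0.16 SE in DIO-R against DIO and -0.34 ± 0.17 SE in DIO against Lean, without passing in either. Clock, which encodes the partner of BMAL1, differed by 0.07 ± 0.09 SE in DIO-R against DIO and by -0.22 ± 0.09 SE in DIO against Lean. No member of the list passed in these 2 comparisons by limma. At an unadjusted p under 0.05 there were 1 and 4, beside 9.73% and 8.95% of all genes. In DIO-R against Lean there were 5, beside 8.95%.

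**Figure D4:**
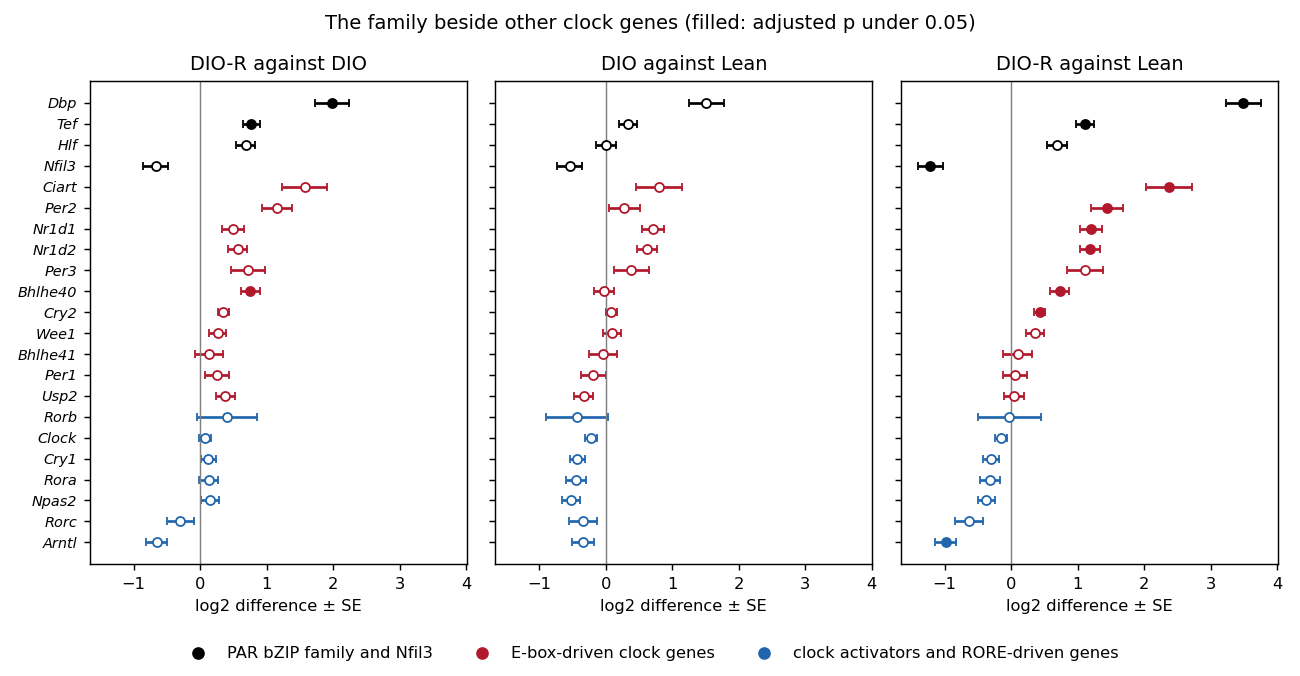
Log2 difference ± SE from limma (x axis) in DIO-R against DIO, DIO against Lean and DIO-R against Lean for the 4 members (black), 11 genes driven through E-boxes (red) and 7 clock activators and genes with ROR elements (blue), filled where the adjusted p is under 0.05. In DIO-R against Lean 6 red genes are filled above 0, and Arntl and Nfil3 are filled below 0.

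Genes that PAR bZIP proteins are known to drive in liver, kidney or brain showed no call. Of 8 listed, 6 were kept, and none passed in any comparison by limma. The comparisons are given here as DIO-R against DIO, DIO against Lean and DIO-R against Lean. In that order 4, 0 and 1 of the 6 had an unadjusted p under 0.05, beside 9.73%, 8.95% and 8.95% of all genes. The 6 had medians of 0.24, -0.13 and 0.21. In DIO-R against DIO, Alas1, the first enzyme of haem synthesis, differed by 0.34 ± 0.09 SE (limma adjusted p = 0.277) and Cyp2b10, a drug-metabolising cytochrome P450, by 0.66 ± 0.23 SE (limma adjusted p = 0.476). Por, the reductase that supplies electrons to such enzymes, differed by 0.32 ± 0.13 SE, and Pdxk, pyridoxal kinase, by 0.16 ± 0.07 SE. These are the 4 with an unadjusted p under 0.05 by limma. The other genes kept were Nr1i3, at 0.15 ± 0.17 SE, and Cyp3a11, at -0.09 ± 0.25 SE. In DIO-R against Lean Cyp3a11 differed by -0.48 ± 0.26 SE.

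Markers of other cells moved with the groups in part. The 5 erythrocyte markers kept of 6 had a median difference of -1.12 in DIO-R against DIO. It was 1.2 in DIO against Lean and 0.08 in DIO-R against Lean. None passed by limma, and 5, 4 and 0 in turn had an unadjusted p under 0.05, beside 9.73%, 8.95% and 8.95% of all genes. The summed level of these markers ran from 4.13 to 6.24 in DIO-R, 5.22 to 7.31 in DIO and 3.61 to 5.81 in Lean. With the mean of these markers as a covariate Dbp differed by 2.13 (limma adjusted p = 0.026) and Tef by 0.80 (limma adjusted p = 0.415) in DIO-R against DIO. The summed level of the 6 skeletal muscle markers ran from 6.91 to 9.44 in DIO-R, 8.42 to 9.83 in DIO and 7.97 to 10.07 in Lean, and with their mean as a covariate Dbp differed by 1.93 and Tef by 0.74. That of the 10 differentiated keratinocyte markers had a median of 10.61 in DIO-R, all of whose samples lay within the range of DIO or Lean, and ran from 9.57 to 10.95 with a median of 10.25 in DIO and from 10.02 to 11.28 with a median of 10.68 in Lean, and Dbp differed by 2.03 and Tef by 0.78 (limma adjusted p = 0.0596) with that covariate. The 6 fibroblast markers were all lower in DIO-R against DIO (median -0.21) and all higher in DIO against Lean (median 0.38). None passed by limma, and 0 and 2 had an unadjusted p under 0.05, beside 9.73% and 8.95% of all genes. The summed level of these markers ran from 7.82 to 8.72 in DIO-R, 7.69 to 8.85 in DIO and 7.61 to 8.65 in Lean. With their mean as a covariate Hlf passed in DIO-R against Lean (0.75, limma adjusted p = 0.023). The 6 adipocyte markers were all lower in DIO-R against DIO (median -1.29) and in DIO-R against Lean (median -1.11). None passed by limma, and 3 and 4 had an unadjusted p under 0.05, beside 9.73% and 8.95% of all genes. In DIO against Lean their median was -0.08. The summed level of these markers ran from 1.64 to 4.14 in DIO-R, 3.64 to 4.82 in DIO and 2.93 to 5.2 in Lean. Their part in the results was not tested. In DIO-R against Lean Dbp lay between 3.35 and 3.55 over 16 alternative settings, these covariates among them, and passed in all 16. The 1 gene of all those tested that passed in DIO against Lean, Aif1, a macrophage marker, rose there by 0.95 ± 0.13 SE (limma adjusted p = 0.00779), and the summed level of the 6 macrophage and dendritic cell markers ran from 4.20 to 5.07 in DIO-R, 4.71 to 5.76 in DIO and 4.32 to 5.10 in Lean. Its part in the member values was not tested. Nfil3 is also needed by natural killer and other innate lymphoid cells, and the summed level of the 5 lymphoid markers kept of 6 had medians of 1.44 in DIO-R, 1.56 in DIO and 1.49 in Lean. The marker not kept was Ncr1, and the sum mixes markers of natural killer cells with those of other lymphoid cells.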

How the data were processed

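The scanner files hold 1-colour intensities that the authors deposited, per the file headers, as output of version 10.10.1.1 of Agilent Feature Extraction: local background was subtracted and a spatial trend removed within each array, and nothing was set equal between arrays. Probe positions are those of build mm9, per the file headers. The authors' deposited value table holds log2 values of 35829 probes, for which the submitters' processing notes name limma; its other steps are not given in the sources used here, and it served as an alternative.

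Each log2 intensity had the 75th percentile of its array's spots that are not controls subtracted. Spots marked as outliers were left out, spots of a probe averaged, and each gene read from its brightest probe on average, kept if well above background on at least 7 of 23 arrays. Symbols were updated through RefSeq accessions (17349 of 28366 genes matched). limma 3.58.1 in R 4.3.3 (lmFit, eBayes, two-sided) fitted a mean per group over all 23 arrays with no covariate; Benjamini-Hochberg adjustment ran over all genes kept. The fit was tested on simulated data. Figures used Python 3.11.15 and matplotlib 3.10.9. No spot was saturated; arrays carry no read depth, and their number limits the precision.

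Members and gene lists were chosen with earlier results of these data known. Genes named are the members, the 5 most like each over the arrays, the 5 most opposed to Dbp, and list genes with a call. List genes named without one (Per1, Per3, Clock, Alas1, Cyp2b10, Por, Pdxk, Nr1i3, Cyp3a11, Rorb) and Sphk2 were chosen after their values were seen. Ncr1 is named as a marker not kept. Alternatives were another background correction, other normalization, filters and probe summaries, blocks for slide or replicate number, other variance models, covariates, and leaving out each array. Replicate numbers were not used to pair the samples in the main fit. Deviations of same-numbered samples correlated between -0.367 and 0.334, which cannot show whether the numbers mark a pairing.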

Additional observations from a re-analysis of the deposited data

Results flagged for a closer look

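Of 15 sets of values, 5 probes in 3 groups, 1 held a sample far from the rest. Chance gives about 1 in 20 sets, so 1 of 15 is close to what chance gives. The Dbp probes follow one another, so the sets are not all independent. Nfil3 in DIO 6 was 2.71, against 1.82 for the next highest DIO sample, a gap of 0.617 of the range of the group. The same sample had the lowest Dbp and Tef of DIO, at 0.92 and 4.35. Without it Dbp passed in DIO against Lean (1.64, limma adjusted p = 0.0218) and Nfil3 differed there by -0.68 (limma adjusted p = 0.0793).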

How the results depend on the processing

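Dbp in both comparisons of DIO-R and Tef in DIO-R against Lean passed under each of 16 alternative settings and without each array. Nfil3 in DIO-R against Lean lost its call with the replicate block alone (-1.20), and Tef in DIO-R against DIO with that block (0.78), with only the 2 groups compared (0.77) and with the erythrocyte or keratinocyte covariate (0.80 and 0.78); the cause was not tested. Dbp in DIO against Lean passed in the authors' value table (1.58), with trend and robust variance (1.51), array weights (1.76) and the muscle covariate (1.52). Hlf in DIO-R against Lean passed with normexp background (0.63), trend and robust variance (0.69), array weights (0.62) and the fibroblast covariate (0.75). The correlations of Hlf with Dbp and Tef without the 2 farthest arrays (0.49 and 0.42) did not pass.

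Leaving out 1 array gave 0.70 to 0.86 for Tef and 0.59 to 0.76 for Hlf in DIO-R against DIO, 0.59 to 0.77 for Hlf in DIO-R against Lean, and 1.36 to 1.64 for Dbp and -0.03 to 0.08 for Hlf in DIO against Lean, where leaving out any of Lean 7 (1.52), DIO-R 3 (1.51), DIO-R 6 (1.51) and DIO 6 (1.64) made Dbp pass. For Hlf in DIO-R against Lean, omitting DIO 1 (0.69) or DIO-R 7 (0.77) had that effect. Within slides, values moved by more than the SD pooled over the 3 groups for Dbp (2.53 and 1.44) and Tef (1.07 and 0.49) in slides 2 and 3 and for Hlf and Nfil3 (0.36 and -0.28) in slide 3, DIO-R against DIO; for Dbp in slides 2 and 3 (0.96 and 2.23) and Tef in slide 3 (0.64), DIO against Lean, where Hlf turned to -0.12 in slide 2; and for Hlf in slide 1 (0.98), DIO-R against Lean.

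The count of all genes called moved more. In DIO-R against DIO it was 17, but 27 after quantile normalization, 26 in the authors' table, 38 with array weights, 4 with the replicate block, 3 with the erythrocyte and 10 with the keratinocyte covariate, and 11 to 24 without 1 array, the lowest without DIO 1, 6 or 8 or DIO-R 5, 8 or 10. In DIO against Lean it was 1, but 2 with normexp, 9 in the authors' table, 3 with slide as a block or trend and robust variance, 61 with array weights, 26 with the muscle covariate, 0 with the replicate block or the keratinocyte or fibroblast covariate, and 1 to 37 without 1 array. The arrays whose omission moved it were DIO 6 (37), Lean 7 (17), DIO-R 6 (8), DIO 3 (3), DIO-R 2 (2) and DIO-R 3 (2). In DIO-R against Lean it was 36, but 109 with array weights, 9 with the replicate block, 75, 129 and 78 with the keratinocyte, fibroblast and muscle covariates, and 26 to 64 without 1 array, the highest without Lean 3.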

Other observations

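The 6 C/EBP relatives, which bind sites close to the D-box, had medians of 0.12, -0.21 and -0.06 in DIO-R against DIO, DIO against Lean and DIO-R against Lean. None passed by limma, and 1, 2 and 0 had an unadjusted p under 0.05, beside 9.73%, 8.95% and 8.95% of all genes. Cebpb differed by 0.16 ± 0.10, -0.26 ± 0.10 and -0.09 ± 0.10 SE in the same order. Among 7 genes listed beside the clock, kinases of its proteins among them, none passed by limma. At an unadjusted p under 0.05 there were 0, 1 and 1, beside the same shares of all genes. Timeless was the 1 gene in question (0.57 ± 0.14 SE in DIO against Lean and 0.60 ± 0.14 SE in DIO-R against Lean). Csnk1d and Csnk1e, kinases of the period proteins, differed by 0.03 ± 0.07 and 0.07 ± 0.07 SE in DIO-R against DIO.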
